A study of Prunus yedoensis with 90 samples.

Results

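The genes described here are 150 transcripts whose leaf levels were higher at the end of summer than in June in 'Somei-yoshino', the Yoshino cherry, out of 95076 gene IDs measured by RNA sequencing. They were chosen from the measured values in 3 steps. First, 35534 genes had a mean of at least 1 TPM (transcript abundance corrected for gene length and scaled to the same total in every library) over 24 leaf libraries. Next, each gene was given the difference between its mean log2(TPM + 1) in the last leaf collection and in June, over 6 trees, which had to reach 1 and be above 0 in every tree. The range of its 10 monthly bud means from June to March also had to stay under 3 on the same scale. The Fukuoka buds of 29 August were left out of these means. In all, 1038 genes passed every threshold, and the members are the 150 with the largest late summer minus June difference.

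In a deciduous tree, a leaf expands in spring, works as a mature photosynthetic organ over summer and is taken apart in autumn, when chlorophyll is broken down and nutrients are moved back into the wood. Gene classes known to become more active as leaves age include those of defence, sugar and hormone responses and, later, senescence. The apical buds form on the same shoots as these leaves and pass into winter dormancy. The gene IDs of the deposited tables carry no names and no reference with names was used here, so no member could be assigned to any of these classes, and the tissue labels could not be checked against marker genes.

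The 6 trees stood, 2 each, in Hokkaido (Sapporo) in northern Japan, in Tsukuba and in Fukuoka in the south, per the labels. All 6 are trees of the same cultivar, which is propagated by grafting, so they are separate plants of 1 clone. The p-values measure the spread between such trees. In the tests of change this spread was pooled over dates, and repeated dates of a tree counted as separate libraries. For leaf changes the pooled dates included the June and late summer leaves by which the members were chosen. Leaves were taken on 4 dates in 2018. In Hokkaido these were 4 June, 9 July, 13 August and 7 September, in Tsukuba 6 June, 5 July, 7 August and 5 September, and in Fukuoka 7 June, 4 July, 1 August and 29 August. Apical buds were taken on the same 4 dates and on 7 later ones, up to 4 and 8 April 2019 in Tsukuba and Hokkaido and 13 March 2019 in Fukuoka, which gave 66 bud libraries. Between 33242 and 35300 genes had more than 1 TPM in a leaf library, and TPM keeps no sequencing depth, so the depth behind each value is unknown. These are bulk samples, in which fewer cells of a type and less RNA per cell cannot be told apart.

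The summed TPM of the members shows the size of the group in each leaf. In June it lay between 192 and 1992 TPM over the 6 trees with a median of 1153 TPM, in July between 437 and 3134 TPM (median 1942 TPM), in August between 1770 and 5055 TPM (median 3754 TPM), and in late summer between 2863 and 11424 TPM (median 5353 TPM). Each tree had its lowest sum in June. The sum was highest in late summer in 5 trees, and in Fukuoka replicate 2 it was highest in August, at 3799 TPM, against 3548 TPM on 29 August. On every date the lowest sum was that of a Hokkaido tree and the highest that of a Tsukuba tree.

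The late summer minus June difference, which chose the members, ran over them from 2.03 to 5.03 with a median of 2.43 on the log2(TPM + 1) scale, while the median of all 35534 leaf genes was 0.15. It is a description and carries no test. The member median of this difference was 3.03 in Hokkaido, 2.63 in Tsukuba and 1.88 in Fukuoka. Hokkaido had the largest of the 3 site differences for 89 members, Tsukuba for 50 and Fukuoka for 11. Mean levels of at least 10 TPM were reached by 132 members in late summer, against 27 members in June. In 78 of the 150 members the lowest late summer leaf lay above the highest June leaf, as in 2.75% of all leaf genes, and these are the leaves by which the members were chosen.

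Among the members, low June levels were most frequent in Hokkaido. June leaves took part in the choice of members, so these counts are a description. The share of all leaf genes at such levels was not counted. In June leaves 100 members had a mean under 1 TPM in Hokkaido, against 15 in Tsukuba and 23 in Fukuoka, and 30 members were listed at 0 in both Hokkaido trees, against 1 in Tsukuba and 1 in Fukuoka. By August 8 members were under 1 TPM in Hokkaido, 3 in Tsukuba and 3 in Fukuoka. The median member level in the 4 Hokkaido collections was 0.48, 1.80, 2.89 and 3.90 on the log2(TPM + 1) scale, in Tsukuba 2.71, 3.52, 4.17 and 5.27, and in Fukuoka 2.04, 2.67, 3.80 and 4.11. The median of all leaf genes stayed between 2.90 and 3.15 in the same 12 combinations of site and date.

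**Figure D1:**
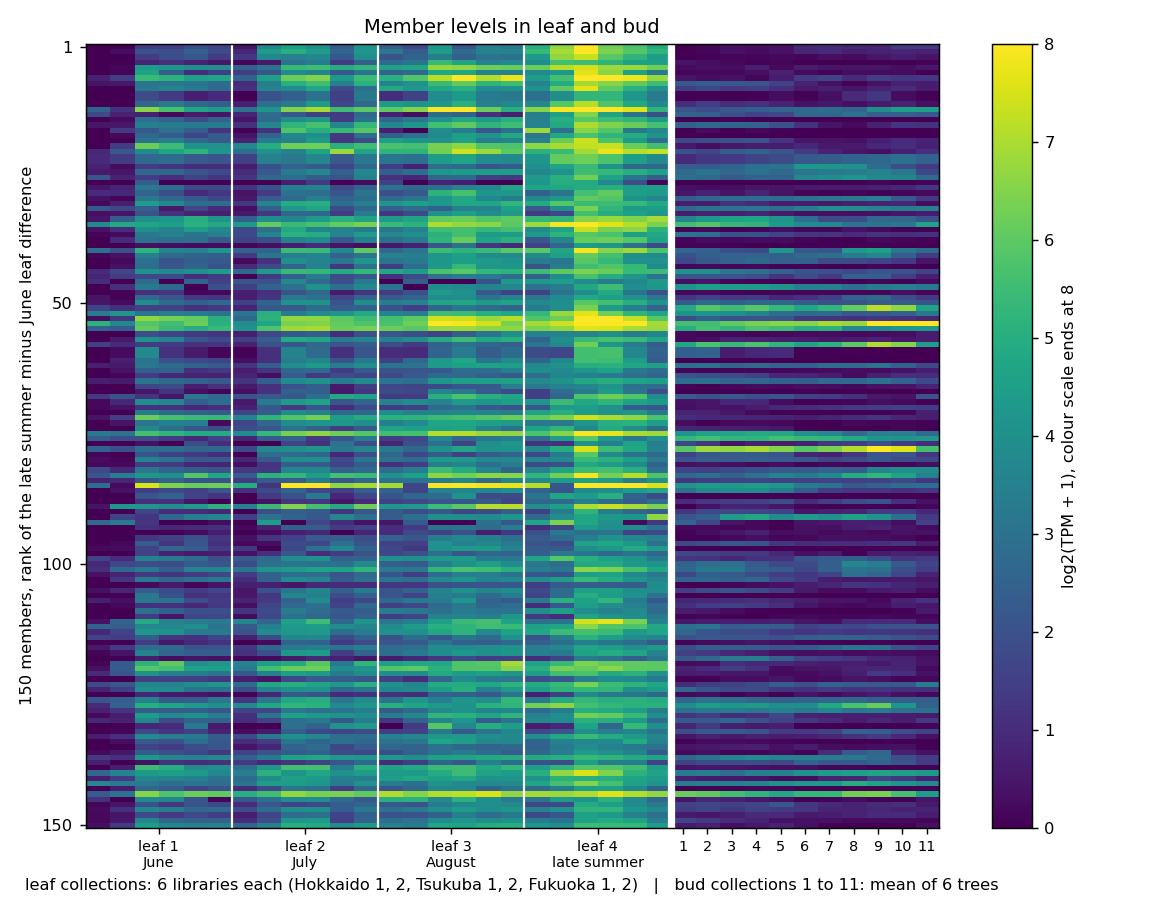
Levels of the 150 members, as log2(TPM + 1) on a colour scale that ends at 8, in the 24 leaf libraries (4 collections, each with Hokkaido, Tsukuba and Fukuoka replicates 1 and 2 from left to right) and in the 11 bud collections (mean of 6 trees). The 2 Hokkaido columns at the left end of each leaf collection are darkest in June, and most bud rows stay dark through the year.

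The members took different courses between the fixed ends. The difference of successive collection means was positive at all 3 steps in 137 members and at 2 of 3 in the other 13. The largest step was June to July for 41 members, July to August for 65 and August to late summer for 44. The 3 members with the largest late summer minus June difference were among the 13. CYE_r3.1SPE0_g005820.1 had a median of 1.72 TPM over the 6 June leaves (0 to 2.71 TPM), 13.2 TPM in July (0.352 to 21.3 TPM), 6.32 TPM in August (2.41 to 17.2 TPM) and 64.4 TPM in late summer (28.1 to 262 TPM). The late summer leaves lay above all earlier leaves, while the July and August leaves overlapped. CYE_r3.1SPE1_g003530.1 had medians of 2.70, 18.7, 9.60 and 71.5 TPM over the same dates, and CYE_r3.1SPE1_g003540.1, whose ID follows it directly, had medians of 1.65, 11.1 and 5.96 TPM up to August and 18.8 to 157 TPM in late summer. All 3 had their highest value in Tsukuba replicate 1 on 5 September, 262, 301 and 157 TPM.

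The next members of the ranking had their medians in ascending order. CYE_r3.1SPA0_g110070.1 had medians of 0.573, 3.00, 11.7 and 29.6 TPM over the 4 leaf collections. CYE_r3.1SPE0_g049460.1 had medians of 14.2, 34.2, 71.8 and 111 TPM, and its late summer leaves ran from 72.8 to 179 TPM, above every June and July leaf. CYE_r3.1SPE4_g028210.1 had medians of 24.1, 32.8, 139 and 164 TPM, with late summer leaves as far apart as 20.6 and 532 TPM. The other members among the 10 largest differences, CYE_r3.1SPA1_g026800.1, CYE_r3.1SPE2_g010420.1, CYE_r3.1SPA4_g015020.1 and CYE_r3.1SPA0_g178500.1, had late summer medians of 21.2, 54.0, 49.4 and 15.7 TPM and June medians of 1.41, 6.79, 6.91 and 0.770 TPM.

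At the end of the list the values ran on without a gap. The last 3 members, CYE_r3.1SPE2_g026090.1, CYE_r3.1SPA3_g017760.1 and CYE_r3.1SPE0_g013040.1, had late summer minus June differences of 2.03 each. The first 3 genes left out, CYE_r3.1SPA6_g016620.1, CYE_r3.1SPE5_g018580.1 and CYE_r3.1SPA0_g030690.1, had 2.03, 2.03 and 2.02. The mean leaf levels of these 6 genes lay between 5.49 and 26.5 TPM, and those of the members overlapped with those of the genes left out.

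The most abundant member in late summer leaves was CYE_r3.1SPE8_g021260.1, with a mean of 302 TPM and a spread from 3.43 to 595 TPM over the 6 trees. It was followed by CYE_r3.1SPA6_g006750.1 (mean 271 TPM), CYE_r3.1SPE6_g006690.1 (237 TPM), CYE_r3.1SPE4_g028210.1 (234 TPM) and CYE_r3.1SPE5_g016230.1 (202 TPM). Averaged over the trees, the first of these held 4.85% of the summed member TPM in late summer.

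July and August leaves entered the choice of members only through the mean level over all 24 leaves, and not through the late summer minus June difference, so the change between them was tested. In August 49 of the 150 members (32.7%) were called higher than in July and 1 was called lower, with limma's moderated test on log2(TPM + 1), an adjusted p under 0.05 over 35534 genes and a change of at least 1. Over all genes tested 0.495% were called higher and 1.87% lower, and over the genes that met the leaf level and bud range of the rule 0.367% and 1.37%. The member median of the change was 0.86, and that of all genes 0.00. The change was above 0 in 142 members on average over the sites and in 70 members in each of the 6 trees, as it was in 6.63% of all leaf genes. The step lies inside the span from June to late summer by which the members were chosen, though the difference between those ends used none of these libraries. The spread behind the p-values was pooled over all 24 leaves, so it included the June and late summer leaves of the choice. The calls are therefore not fully independent of the choice.

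CYE_r3.1SPA0_g110070.1 changed by 2.06 (SE 0.25, limma adjusted p = 0.000228). Its August leaves had 5.92 and 7.61 TPM in Hokkaido, 41.8 and 24.4 TPM in Tsukuba and 10.3 and 13.1 TPM in Fukuoka, against July leaves of 0.0932 and 0.476 TPM in Hokkaido, 7.31 and 9.34 TPM in Tsukuba and 1.59 and 4.41 TPM in Fukuoka. Within each site the months did not overlap, and it was higher in August in 6 of 6 trees. CYE_r3.1SPA8_g002960.1 changed by 1.95 (SE 0.24, limma adjusted p = 0.000289), with 6.79 to 24.7 TPM in August leaves (median 22.2 TPM) and 1.81 to 7.09 TPM in July leaves (median 3.61 TPM). It too was higher in August in all 6 trees.

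The exception was CYE_r3.1SPA2_g023980.1, which was lower in August by −1.72 (SE 0.50, limma adjusted p = 0.0427). Its August leaves had 0.583 and 0 TPM in Hokkaido, 13.4 and 9.26 TPM in Tsukuba and 3.35 and 6.80 TPM in Fukuoka, against July leaves of 0 and 1.24 TPM, 55.0 and 32.2 TPM, and 39.8 and 57.9 TPM at the same sites. It was lower in August in 5 of 6 trees, and late summer leaves reached 113 TPM in Hokkaido replicate 1. Its call was lost in 9 of 15 alternative settings, where the adjusted p reached 0.976.

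Members above their July level in August numbered 143 and 109 in Hokkaido replicates 1 and 2, 103 and 115 in Tsukuba, and 146 and 127 in Fukuoka, with medians of 1.54 and 0.56, 0.56 and 0.59, and 1.17 and 0.68 on the log2 scale. The number of calls was sensitive to single trees: 28 and 32 members were called higher without Fukuoka replicate 1 or 2, 25 and 21 without Tsukuba replicate 1 or 2, and 30 higher and 1 lower without Hokkaido replicate 1. With 1 tree per site from a single series of library numbers, 0 members were called by limma, although 79 had an unadjusted p under 0.05, as had 113 with all trees.

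**Figure D2:**
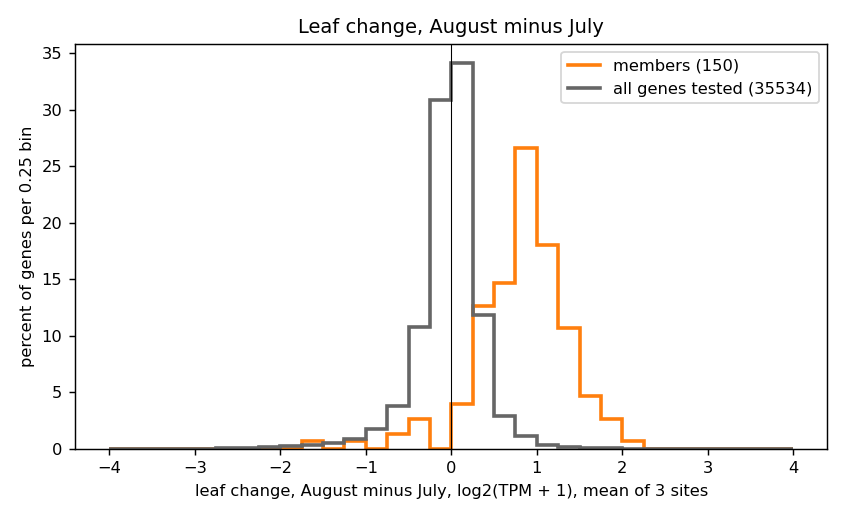
Distribution of the August minus July leaf change, on the log2(TPM + 1) scale in bins of 0.25, for the 150 members and for the 35534 genes tested, each as a percent of its genes. The members' bulk lies to the right of 0, with a median of 0.86, while all genes centre on 0.00.

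Site levels in July and August were compared on the mean of each tree over both collections, 2 trees per site. Hokkaido leaves had the lowest of the 3 site levels in 136 of 148 members tested (91.9%, against 45.0% of all genes), and 2 members did not reach a mean of 1 TPM in these libraries. Sites differed in 87 members (58.8%; limma F test, adjusted p under 0.05 and a range of at least 1), and 6.73% of 34717 genes tested were called, or 5.36% of those within the leaf level and bud range of the rule. Levels in Hokkaido were called lower than in Tsukuba in 85 members and higher in 0, where 2.18% and 1.79% of all genes were called (1.61% and 1.49% within the rule's leaf level and bud range). They were called lower than in Fukuoka in 58 members and higher in 0, where 3.54% and 2.04% of all genes were (2.49% and 1.68% within those bounds). Tsukuba was called higher than Fukuoka in 6 members and lower in 0, with 0.265% and 0.357% of all genes (0.245% and 0.261% within those bounds). In either direction, 132, 106 and 52 members had an unadjusted limma p under 0.05 in the 3 pairs of sites in that order. The difference was above 0 in 2, 11 and 122 of the 148 members. The member medians of these differences were −1.40, −1.01 and 0.44, against −0.03, −0.08 and −0.04 over all genes. The choice of members favoured genes low in June leaves, and 100 members had a mean under 1 TPM in Hokkaido in June. July and August lie on the same rise, so these site levels are not fully independent of the choice.

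CYE_r3.1SPA2_g014710.1 had the widest range among called members, 4.12 on the log2 scale (limma adjusted p = 0.00338). In August it had 0 and 1.56 TPM in the Hokkaido trees, 58.2 and 12.1 TPM in the Tsukuba trees and 30.6 and 20.9 TPM in the Fukuoka trees, and in July it was listed at 0 in both Hokkaido trees, with 6.54 and 4.92 TPM in Tsukuba and 16.4 and 18.7 TPM in Fukuoka. The Hokkaido trees did not overlap with the others. CYE_r3.1SPA2_g023980.1 had a range of 4.06 (limma adjusted p = 0.00159), again with Hokkaido lowest. CYE_r3.1SPA6_g033710.1 had a range of 2.69 (limma adjusted p = 0.00395), with 2.72 and 3.72 TPM in August leaves of Hokkaido, 34.9 and 49.7 TPM in Tsukuba and 17.6 and 18.3 TPM in Fukuoka. CYE_r3.1SPE8_g021260.1, the most abundant member, had a wider range of 4.39 without a call (limma adjusted p = 0.0803); it was chosen for mention after its values were seen.

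The 6 members called higher in Tsukuba than in Fukuoka, also named after their values were seen, were CYE_r3.1SPA6_g026810.1 (1.90), CYE_r3.1SPE6_g006690.1 (1.89), CYE_r3.1SPE6_g006710.1 (1.57), CYE_r3.1SPA6_g026820.1 (1.48), CYE_r3.1SPE5_g001430.1 (1.28) and CYE_r3.1SPA8_g002960.1 (1.08), each a log2 difference with a limma adjusted p between 0.0166 and 0.0400. Hokkaido leaves were taken on 9 July and 13 August, later than those of Tsukuba by 4 and 6 days. Fukuoka leaves were taken on 4 July and 1 August, earlier than those of both other sites. In each pair of sites, site and date cannot be told apart. The count of members that differed between sites was 44 with a pseudocount of 0.1, 5 without a filter on low values, 51 and 47 without Fukuoka replicate 1 or 2, and 49 without Hokkaido replicate 1.

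**Figure D3:**
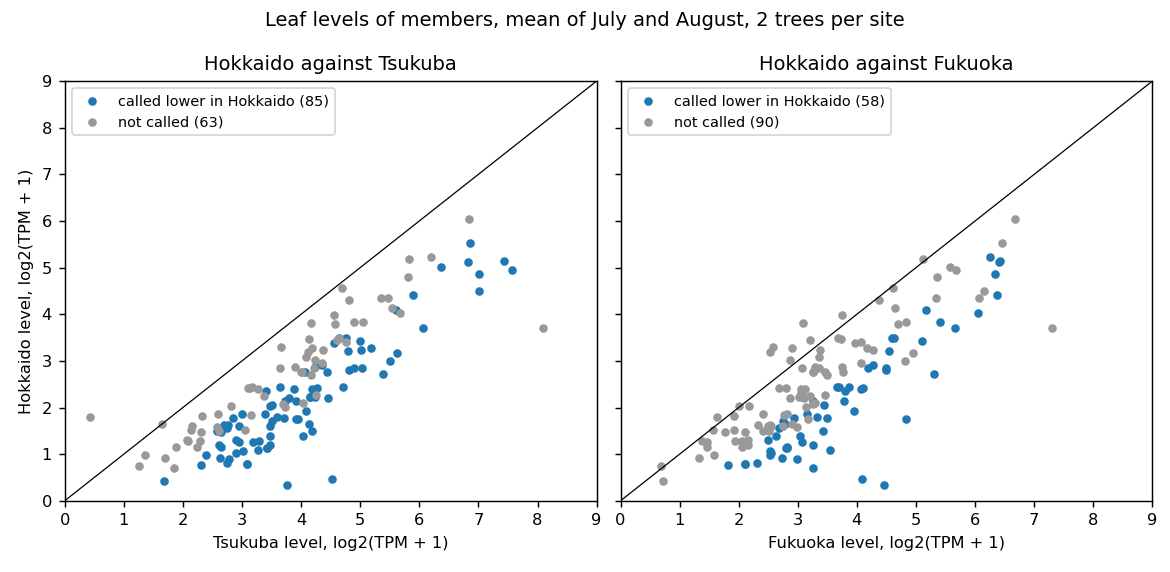
Leaf level of each of 148 members in Hokkaido (vertical axis) against Tsukuba (left) and Fukuoka (right), as the mean log2(TPM + 1) of July and August over 2 trees per site, with the line of equal levels. The 85 and 58 members called lower in Hokkaido are blue, and nearly all members lie below the line.

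The August minus July change itself differed between sites in 2 of 150 members (1.33%), while 0.78% of all genes tested and 0.672% of those within the rule's leaf level and bud range were called, and in 6 members with the tree as a replicate block. In CYE_r3.1SPE3_g035080.1 the change was −0.76 in Hokkaido, 2.87 in Tsukuba and 0.15 in Fukuoka (limma adjusted p = 0.0457). Its August leaves had 1.68 and 1.54 TPM in Hokkaido, 32.8 and 50.6 TPM in Tsukuba and 33.0 and 25.3 TPM in Fukuoka, against July leaves of 3.17 and 3.68 TPM, 3.40 and 6.48 TPM, and 27.8 and 24.1 TPM at these sites. Fukuoka leaves were thus already high in July, and Hokkaido leaves were low in both months. This member also differed between sites in level, by a range of 3.06 (limma adjusted p = 0.00244).

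In CYE_r3.1SPA4_g007530.1 the change was 1.22 in Hokkaido, −0.25 in Tsukuba and 2.08 in Fukuoka (limma adjusted p = 0.0422). August leaves had 6.91 and 5.62 TPM in Hokkaido, 6.68 and 10.6 TPM in Tsukuba and 13.3 and 24.4 TPM in Fukuoka, against July leaves of 1.31 and 3.19 TPM, 9.61 and 10.9 TPM, and 2.46 and 4.86 TPM. By late summer the sites were close together, at 24.2 and 26.7 TPM, 29.5 and 32.0 TPM, and 21.5 and 20.7 TPM. A call of a site difference was made for 0 members without either Fukuoka tree or either Tsukuba tree (13 to 26 at an unadjusted p under 0.05), for 0 without a filter on low values (24 at an unadjusted p under 0.05) and for 9 without Hokkaido replicate 2. With all trees, 26 members had an unadjusted p under 0.05.

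Leaves and buds of the same trees and dates were compared over July and August. Of 146 members with a mean of at least 1 TPM in these libraries, 95 (65.1%) were called higher in leaf and 7 (4.79%) lower, and over all 39025 genes tested 12.5% were called higher and 25.5% lower. Among genes that met the leaf level and bud range of the rule the shares were 13.9% and 17.1%. The member median of the leaf minus bud difference was 1.77 on the log2 scale and that of all genes −0.43, and after median scaling these were 2.18 and −0.02. The labels' protocol gives a separate RNA extraction method for each tissue, and the 2 cannot be told apart in this comparison. The rule used the bud libraries for the range of their monthly means but set no level of leaf against bud. It did require a mean leaf level of at least 1 TPM, and it required no bud level. The filter of this test took the mean over both tissues, so a member could pass on its leaf level alone. Over the 66 buds, 67 members had a mean under 1 TPM. The share called higher in leaf is therefore not independent of the choice of members and the filter.

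CYE_r3.1SPE4_g028210.1 was higher in leaf by 5.54 (SE 0.35, limma adjusted p = 2.08e-08). Its August leaves had 32.4 to 282 TPM (median 139 TPM), and its August buds had 0 to 0.704 TPM (median 0.383 TPM). CYE_r3.1SPA1_g026770.1 was higher in leaf by 5.25 (SE 0.23, limma adjusted p = 8.42e-10), with 47.9 to 99.7 TPM in August leaves and 0 to 1.12 TPM in August buds. In both genes every July and August leaf lay above every bud of those months.

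The 7 members lower in leaf had higher levels in buds on these dates. CYE_r3.1SPE4_g016840.1 was lower in leaf by −3.39 (SE 0.15, limma adjusted p = 6.86e-10), with 1.54 to 7.10 TPM in August leaves and 18.3 to 69.5 TPM in August buds. In late summer its leaves had 4.09 to 76.6 TPM (median 10.5 TPM), still below the buds of that date in the median (50.1 TPM). CYE_r3.1SPE0_g135020.1 was lower by −3.42 (SE 0.15, limma adjusted p = 8.29e-10) and differed from CYE_r3.1SPE4_g016840.1 by at most 0.21 on the log2 scale in any of the 90 libraries, so reads may be shared between these IDs and both levels are uncertain. The other 5, listed after their values were seen, were CYE_r3.1SPA4_g019880.1 (−3.13), CYE_r3.1SPA7_g019890.1 (−3.07), CYE_r3.1SPA4_g018640.1 (−2.16), CYE_r3.1SPE8_g021290.1 (−1.49) and CYE_r3.1SPA2_g029540.1 (−1.33), with limma adjusted p of 0.000276 or lower. With a mean of at least 5 TPM 91 members could be tested, of which 60 were higher and 6 lower in leaf.

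**Figure D4:**
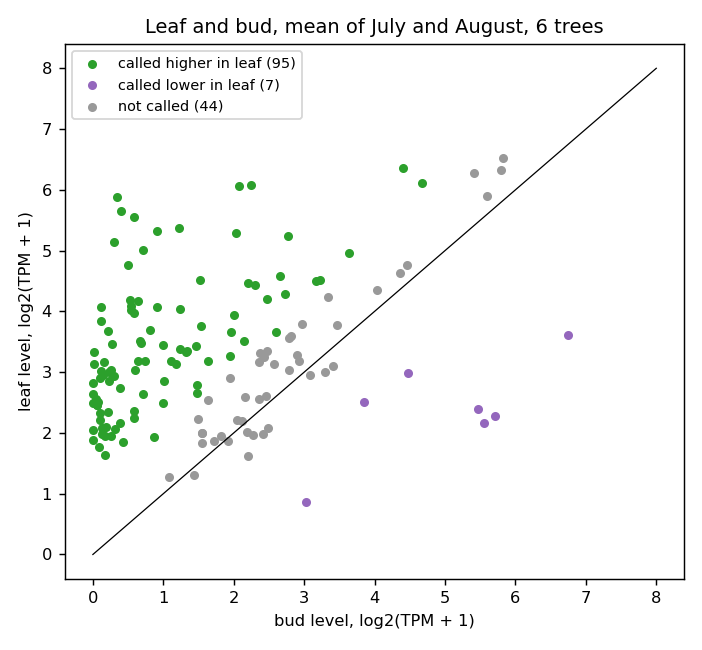
Leaf level (vertical axis) against bud level (horizontal axis) of 146 members, as the mean log2(TPM + 1) of July and August over 6 trees, with the line of equal levels. The 95 members called higher in leaf stand above the line, many at a bud level near 0, and the 7 called lower in leaf stand apart below it.

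The August minus July change was also set against the change in buds. It was more positive in leaf in 49 of 150 members (32.7%) and more negative in 0, while 0.641% and 1.43% of 39310 genes were called (0.494% and 1.02% within the rule's leaf level and bud range), and 102 members had an unadjusted p under 0.05. This difference uses the same leaf libraries as the leaf change above. Over the 66 buds, 67 members had a mean under 1 TPM. Where the bud change is at or near 0, the difference largely repeats the leaf change. The 49 calls alone therefore cannot show a change specific to leaf. The member median of the difference was 0.93, and that of all genes 0.01. In buds alone the median change was −0.02 both in the members and in all leaf genes, and 5 of the 150 members were above 0 in all 6 trees, as were 7.07% of all leaf genes.

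The largest such difference was that of CYE_r3.1SPA4_g027630.1, 2.29 (SE 0.46, limma adjusted p = 0.00391). Its August leaves had 0.918 to 9.35 TPM and its July leaves 0.0645 to 11.2 TPM, while its August buds had 0.165 to 0.794 TPM and its July buds 1.69 to 15.6 TPM. The leaf values overlapped between the months and the bud values did not. CYE_r3.1SPA0_g122570.1, at 2.28 (SE 0.46, limma adjusted p = 0.00402), differed from it by at most 0.04 on the log2 scale in any library, so the same reads may be counted in both. The 49 calls were 14 without Fukuoka replicate 1, 20 and 15 without Tsukuba replicate 1 or 2, 29 higher and 1 lower without Hokkaido replicate 1, and 0 (65 at an unadjusted p under 0.05) with 1 tree per site from a single library series.

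Buds were compared on the dates that chose the members in leaves. The rule used these bud libraries, except those of Fukuoka on 29 August, to hold the range of monthly means under 3. The size and number of the changes were therefore bounded by the choice of members, and nothing is read from their number, size or split. Changes of single members are given as a description within that bound. A mean of at least 1 TPM over the 66 buds was met by 83 members, and the other 67 were below it. Of the 83, 8 (9.64%) were called higher and 4 (4.82%) lower in buds of collection 4 than of collection 1, while 3.35% and 4.6% of 40161 genes were called, and 1.71% and 2.69% of those within the rule's leaf level and bud range. The 83-member median of this change was 0.16 and that of all genes −0.10.

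CYE_r3.1SPE0_g091460.1 was higher in late summer buds by 2.63 (SE 0.29, limma adjusted p = 2.13e-09), with 3.84 to 99.3 TPM (median 34.3 TPM) against 0.541 to 7.29 TPM in June buds (median 4.35 TPM). It was higher in 6 of 6 trees, by 0.40 in Hokkaido replicate 2 and by 3.92 in Tsukuba replicate 1. CYE_r3.1SPA4_g018640.1 was higher by 1.13 (SE 0.15, limma adjusted p = 8.88e-08), with 12.7 and 12.0 TPM in Tsukuba and 18.4 and 20.5 TPM in Fukuoka against June buds of 3.91 and 3.02 TPM, and 8.21 and 4.38 TPM. In Hokkaido the same gene had 2.09 and 4.25 TPM in late summer buds and 1.97 and 2.85 TPM in June buds.

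CYE_r3.1SPE3_g001400.1 was lower in late summer buds by −2.42 (SE 0.20, limma adjusted p = 7.36e-12): it was listed at 0 in all 4 buds of Tsukuba and Fukuoka and had 0.733 and 0.241 TPM in Hokkaido, against 1.66 to 10.1 TPM in June buds. In the leaves of the same dates it had 25.5 and 85.3 TPM in Hokkaido, 26.0 and 15.3 TPM in Tsukuba and 0.146 and 1.44 TPM in Fukuoka in late summer, against 5.87 and 8.83 TPM, 1.29 and 0 TPM, and 0 and 0.191 TPM in June. CYE_r3.1SPA0_g122570.1 was lower in late summer buds by −1.53 (SE 0.36, limma adjusted p = 0.000584). The split of 8 higher and 4 lower turned without Fukuoka replicate 1 (5 and 7), without Fukuoka replicate 2 (5 and 6) and without Tsukuba replicate 1 (4 and 9). The total was 20 with a pseudocount of 0.1, 7 with a mean of at least 5 TPM and 1 with 1 tree per site. These were the trees of the single library series, though their later buds had other library numbers.

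The summed TPM of the members in bud collections had medians from 709 TPM (collection 6) to 1460 TPM (collection 9). In June leaves that median was 1153 TPM. Through the year the median level of the members stayed low in buds. Their median monthly level on the log2(TPM + 1) scale was 1.24 in June, 1.45 in July, 1.33 in August, 1.40 in September, 0.84 in October, 0.73 in November, 0.71 in December, 0.94 in January, 1.01 in February and 0.83 in March, while that of all leaf genes stayed between 3.24 and 3.51. The highest monthly mean fell in January for 28 members, in July for 24, in September for 22, in February for 19, in August for 17, in June for 15, in March for 15, in December for 4, in October for 3 and in November for 3. As in the rule, the Fukuoka buds of 29 August were left out of the monthly means. Without the bud library of Fukuoka replicate 1 of 26 September, whose summed member TPM stood apart, the September median was 1.25 and the highest mean fell in September for 19 members and in July for 27, an alternative chosen after seeing the data. In 122 members no bud library reached the mean of the late summer leaves, which took part in the choice of members, and in 28 at least 1 did. Over all leaf genes the share with no such bud library was 13.6%. CYE_r3.1SPA6_g006750.1 was one of the 28, with 580 TPM in buds of Fukuoka replicate 1 on 14 February 2019.

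**Figure D5:**
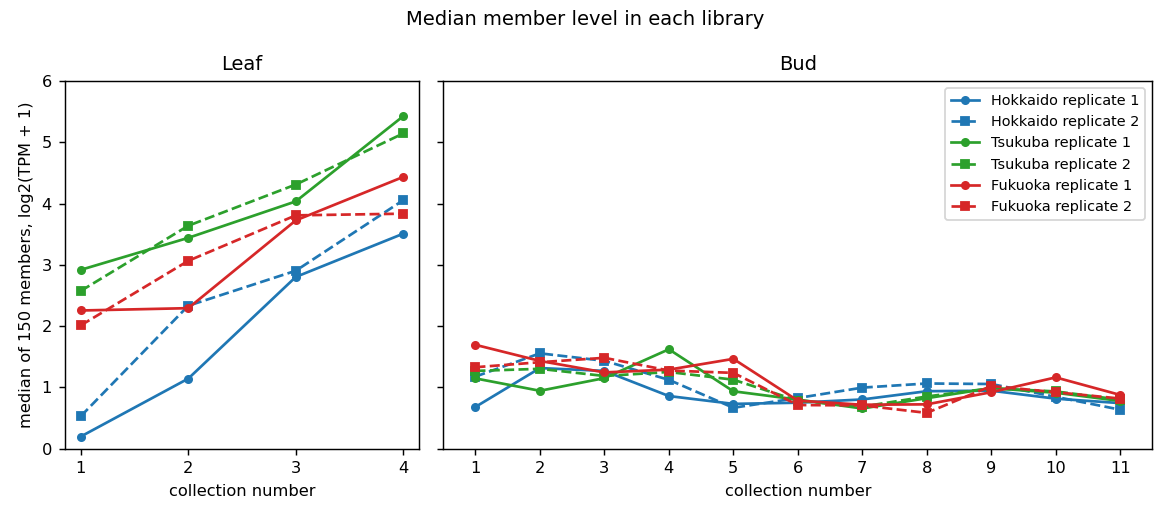
Median log2(TPM + 1) of the 150 members in each library, by collection number, for leaves (left) and buds (right), with Hokkaido in blue, Tsukuba in green and Fukuoka in red, replicate 1 as solid and replicate 2 as dashed lines. In each tree the leaf median is higher at every later collection, with 0.20 in Hokkaido replicate 1 in June as the lowest and 5.43 in Tsukuba replicate 1 in September as the highest, and bud medians stay below 2 on every date.

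Leaves of single trees did not all move at the same time. From August to late summer 115 and 137 members were higher in Hokkaido replicates 1 and 2, 140 and 147 in Tsukuba replicates 1 and 2, and 140 in Fukuoka replicate 1, but 64 in Fukuoka replicate 2, where the member median of this step was −0.08. Of all leaf genes, 52.2 and 53.6% were higher in the Hokkaido trees, 67.9 and 65.9% in Tsukuba, and 45.5 and 52.1% in Fukuoka. The step from August to late summer shares the late summer libraries with the choice of members and is given as a description.

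Of the members, 35 had another member within 50 ID numbers, and 8 pairs were directly consecutive. These counts were not compared with other sets of genes and describe the list alone. The sources used here do not state whether ID order follows position on a chromosome. The longest run was of 4 IDs, CYE_r3.1SPE8_g021230.1, CYE_r3.1SPE8_g021260.1, CYE_r3.1SPE8_g021290.1 and CYE_r3.1SPE8_g021330.1, whose late summer medians were 31.4, 275, 16.2 and 119 TPM and whose June medians were 7.86, 71.9, 2.02 and 29.4 TPM. Neighbours in this run differed in tissue: leaf minus bud was 1.74, 1.96, −1.49 and 1.44 on the log2 scale, with limma adjusted p of 0.00274, 0.0319, 0.000276 and 6.47e-05.

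In the ID, 82 members (54.7%) had SPA and 68 had SPE, and SPA made up 52.0% of the leaf genes. What these letters stand for was not stated in the labels or files. In 8 pairs both IDs were members and differed by at most 0.5 on the log2 scale in every library, among them CYE_r3.1SPA0_g178500.1 with CYE_r3.1SPA0_g015670.1, and CYE_r3.1SPA3_g017760.1 with CYE_r3.1SPA0_g098600.1. Such IDs may share reads, and their separate levels are uncertain.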

How the data were processed

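Per the labels, leaf and apical bud RNA of 6 trees was sequenced as paired reads. The authors deposited TPM values for 95076 gene IDs in 90 libraries. The tool fastp 0.20.0 is listed in the submitters' processing notes together with StringTie 1.3.5 and STAR 1.5.2. The sources used here do not give the genome build, annotation or strand setting. Depth is unknown, so no counting intervals are given.

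Values were taken as log2(TPM + 1), which understates fold changes of low genes. Each comparison was fitted in R 4.3.3 by limma 3.58.1, using lmFit, contrasts.fit and eBayes without trend or robust options, on all genes with a mean of at least 1 TPM in the fitted libraries, with Benjamini-Hochberg adjustment over those genes. A call needed an adjusted p under 0.05 and a change, or range of site means, of at least 1. Leaf changes used 24 libraries with 1 mean per site and date, and tree means were used for site and tissue levels. The fits were tested on simulated data.

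Members, gene lists and comparisons were chosen with earlier results of these data known. Genes named are the 10 with the largest late summer minus June difference, 3 on each side of the last rank, and per test the 2 called members with the largest positive and 2 with the largest negative value (4 with the largest range for F tests); others are marked where they stand. Lists of leaf, bud and pathway genes were not used because the IDs have no names. The labels give each replicate number to 1 tree on all dates, which pairs libraries by design. As a check, between-tree differences at a site correlated across genes from one leaf date to another with a median r of 0.203 in Hokkaido, 0.197 in Tsukuba and 0.260 in Fukuoka. Alternative settings changed the filter, the pseudocount, the scaling (median or quantile) and the eBayes options. Others used the tree as a block, 1 tree per site from a single library series, and each tree left out in turn. A further setting used July and August libraries only (chosen after seeing the data). Trees of the single series were picked by their leaf library numbers, and their later buds had other numbers.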

Additional observations from a re-analysis of the deposited data

Results flagged for a closer look

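In buds of the fifth collection, the summed TPM of the members was 4189 in Fukuoka replicate 1, on 26 September 2018, while the other 5 trees lay between 529 and 1046 TPM. Of 36 groups of 6 trees examined for a sample standing apart, this was the 1 that did, and chance alone flags about 1 group in 20. A single member, CYE_r3.1SPE4_g025330.1, had 2636 TPM in that library, against 31.4 TPM in the other Fukuoka tree on the same date, and its next highest bud value was 287 TPM. Without this member the sum was 1552 TPM, still above the other 5 trees, which then lay between 528 and 1030 TPM. In all, 19 members had their highest bud value in this library, and no other bud library held more than 10 such members. Among them were CYE_r3.1SPA1_g026800.1 with 11.8 TPM (next highest 1.33 TPM), CYE_r3.1SPE1_g016910.1 with 25.7 TPM (3.03 TPM) and CYE_r3.1SPA2_g036510.1 with 55.2 TPM (15.1 TPM), chosen after their values were seen.

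In 2 of 150 members (1.33%) the August minus July change of leaves differed between sites, a share near that of all genes tested (0.78%). The range of the 3 site changes was 3.63 in CYE_r3.1SPE3_g035080.1 (limma adjusted p = 0.0457), whose change was above 0 in 2 of 2 Tsukuba trees and below 0 in 2 of 2 Hokkaido trees. It was 2.34 in CYE_r3.1SPA4_g007530.1 (limma adjusted p = 0.0422), whose change was above 0 in both Hokkaido and both Fukuoka trees and below 0 in both Tsukuba trees. The calls were lost in 10 of 14 and in 8 of 14 alternatives, where the adjusted p ran from 0.00530 to 0.422 and from 0.0219 to 0.491.

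The same change differed between leaf and bud by 2.29 in CYE_r3.1SPA4_g027630.1 (limma adjusted p = 0.00391) and by 2.28 in CYE_r3.1SPA0_g122570.1 (limma adjusted p = 0.00402), the widest among the members, and these IDs may share reads. Both calls were lost in 2 of 15 alternatives, where the adjusted p reached 1.00.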

How the results depend on the processing

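Depth is unknown with TPM, so calls of low members cannot be weighed by counts, and with 2 trees per site single trees carried weight. Leaving out each tree in turn gave 21 to 66 members called in leaf August minus July, 47 to 101 between leaf sites, 0 to 9 in the site difference of the change, 96 to 110 in leaf minus bud, 9 to 14 in buds of collection 4 minus 1, 14 to 65 in the leaf minus bud change, and 117 to 131 of the 150 members kept by the rule. The bud split of 8 higher and 4 lower turned without Fukuoka replicate 1 (12 called, 5 higher), Fukuoka replicate 2 (11 called, 5 higher) and Tsukuba replicate 1 (13 called, 4 higher).

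With a single library series, 1 tree per site, 0 members were called in leaf August minus July (79 at an unadjusted p under 0.05). The leaf minus bud change had 0 calls in that setting (65 at an unadjusted p under 0.05). In buds the same trees gave 1 call, and their later bud libraries had other library numbers. A pseudocount of 0.1 gave 44 members between leaf sites and 20 in buds, and ranked 78 of the members among its own top 150. No filter on low values gave 5 between leaf sites and 0 in the site difference (24 at an unadjusted p under 0.05). A mean of at least 5 TPM gave 66 in leaf minus bud and 7 in buds, with fewer members tested. The cause of the other shifts was not tested. With the tree as a replicate block, the counts were 54 for leaf August minus July, 6 for the site difference, 101 for leaf minus bud, 12 for buds and 58 for the leaf minus bud change; the call of CYE_r3.1SPA2_g023980.1 in leaf August minus July was lost under the block, and no other named call changed.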
